A study of Mus musculus with 8 samples.

Results

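Erythroid priming is the presence of red cell transcripts in blood stem cells. A list of 9 genes with this name was followed in libraries labelled as long-term hematopoietic stem cells (LT-HSCs) of mouse fetal liver. The genes were taken by symbol, and 9 of the 55487 gene identifiers of the count table carry one of these names. The transcription regulators were Gata1, Klf1 and Zfpm1. Tfrc encodes the transferrin receptor, and Alas2, Slc4a1, Car1, Rhag and Rhd were treated as late red cell genes. The 9 genes were taken from a list of names, drawn up with earlier results of these data known, and all 9 passed the minimum of 10 reads summed over the libraries.

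The study compared embryos that carried no, 1 or 2 targeted alleles (Nfkbia tm1Bal) of the gene for IκBα, the inhibitor that holds NF-κB in the cytoplasm. Each library was made from 500 LT-HSCs, sorted from E14.5 embryos as lineage-negative, SCA1+, cKIT+ (LSK), CD48- and CD150+ cells. There were 3 wild-type (WT1 to WT3), 3 heterozygous (HET1 to HET3) and 2 knockout (KO1 and KO2) libraries, and the methods state that a further KO library was discarded for its sequencing quality. No group was treated, and the allele is carried in the germline, so the other cell types of a KO embryo lack IκBα too. WT1, WT2 and HET1 were male and labelled as total RNA, while WT3, HET2, HET3, KO1 and KO2 were female and labelled as polyA RNA. Sex and the label of the extracted molecule therefore cannot be told apart, and neither KO library was male.

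Gata1 is the transcription factor that directs red cell and megakaryocyte development, and Zfpm1 encodes FOG1, its cofactor. Klf1 switches on many genes of the maturing red cell, among them the adult beta-globin gene. Tfrc brings iron into the cell, and Alas2 carries out the first, rate-limiting step of heme synthesis in red cells. Slc4a1 encodes band 3, the anion exchanger of the red cell membrane, Car1 an abundant red cell carbonic anhydrase, and Rhag and Rhd proteins of the Rh complex of the membrane. Transcripts of this kind, when found in stem cells ahead of commitment, are read as lineage priming. Whether the reads in these bulk libraries came from stem cells was not tested.

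In the GRCm38 annotation (GENCODE M21), Gata1 lies at chrX:7959260-7978071 on the minus strand and Alas2 at chrX:150547375-150570638 on the plus strand. Klf1 (chr8:84901928-84905291) and Zfpm1 (chr8:122282141-122337251) share a chromosome and the plus strand. Tfrc lies at chr16:32608920-32632794, Rhag at chr17:40811126-40840754 and Rhd at chr4:134864536-134896172, all on the plus strand. Slc4a1 (chr11:102348824-102366203) and Car1 (chr3:14766216-14808368) lie on the minus strand. Reads were counted over the exons of each gene.

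The libraries held 17895973 to 21720972 reads assigned to genes, and levels are given as CPM (each count scaled to a common library size, as in edgeR) after scaling by trimmed mean of M-values (TMM). At this depth 3 reads corresponded to 0.138 to 0.168 CPM. Nfkbia, the targeted gene, had 243 to 1621 reads in the WT and HET libraries, 1 read in KO1 and 0 in KO2, which follows the labels (edgeR log2 fold change of KO -9.50, SE 0.91, adjusted p = 0.0862). Markers of the sorted cell type did not follow the label evenly. The summed level of 8 LT-HSC markers was 1739 CPM in WT1, 1879 in WT2, 1727 in KO1 and 1142 in KO2. It was 687 CPM in HET1, 593 in HET2, 286 in WT3 and 200.2 in HET3. In HET3 the stem cell antigen gene Ly6a had no read and Procr, which encodes EPCR, stood at 1.13 CPM, and in WT3 they stood at 5.0 and 8.49 CPM, against 62.7 and 169 CPM in WT1. The 8 hepatocyte markers summed to 1490.2 CPM in WT3, 748 in HET3 and 301 in KO2, and to 50.0 to 204 CPM in the other libraries. WT3 and HET3 thus stood furthest apart from the LT-HSC label. HET1 and HET2 also had lower LT-HSC marker sums than WT1, WT2 and both KO libraries. Fold changes of members in KO and HET, and list medians in KO, are also given without WT3 and HET3. Those fits still include HET1 and HET2. The correlations, the counts of non-overlapping libraries and nearly all male against female values are given with all libraries only. In bulk RNA, fewer cells of a type and less RNA per cell cannot be told apart.

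Gata1 was read at 51.7, 66.5 and 402 CPM in WT1, WT2 and WT3, at 248, 336 and 427 CPM in HET1, HET2 and HET3, and at 56.1 and 225 CPM in KO1 and KO2. Klf1 stood at 114, 85.4 and 1039.8 CPM in the WT libraries, 731, 941 and 1227 CPM in the HET libraries, and 36.2 and 518 CPM in KO1 and KO2. Zfpm1 had the narrowest range, with 97.7, 101.7 and 197 CPM in WT, 171, 188 and 242 CPM in HET, and 126 and 200.1 CPM in KO. For all 3 regulators WT1, WT2 and KO1 were the 3 lowest libraries and HET3 the highest. The highest level exceeded the lowest 8.27-fold for Gata1, 33.9-fold for Klf1 and 2.48-fold for Zfpm1.

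**Figure D1:**
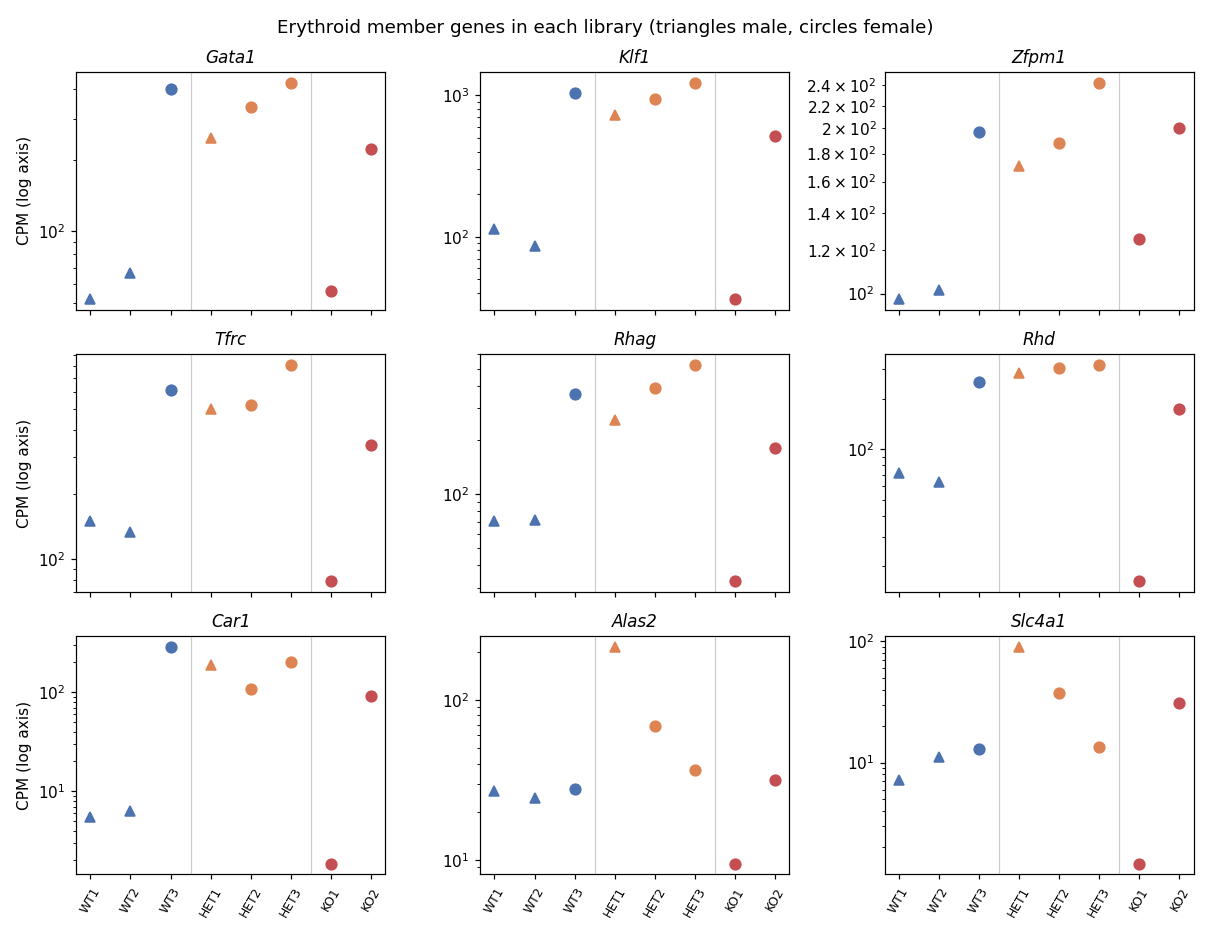
CPM (log axis) of each of the 9 genes in the 8 libraries, with triangles for male and circles for female embryos, WT in blue, HET in orange and KO in red. Alas2 and Slc4a1 peaked in HET1 at 213 and 89.5 CPM, and the other 7 genes were low in WT1, WT2 and KO1 and high in WT3 and the HET libraries.

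Tfrc followed the order of Klf1 in every library, with 149.7, 133 and 615 CPM in WT1 to WT3, 499, 525 and 806 CPM in HET1 to HET3, and 78.5 and 340.0 CPM in KO1 and KO2. Rhag stood at 70.9, 71.5 and 361 CPM in WT, 258, 390.3 and 523 CPM in HET, and 32.5 and 179 CPM in KO. Rhd stood at 71.8, 63.9 and 251 CPM in WT, 283, 306 and 318 CPM in HET, and 16.3 and 173 CPM in KO. These 3 genes, all of which act at the cell membrane, were lowest in KO1, low in WT1 and WT2, and intermediate in KO2. Car1 had the widest range, 153-fold from lowest to highest, with 5.52, 6.31 and 285 CPM in WT, 188 (HET1), 109 (HET2) and 202 (HET3) CPM, and 1.86 and 91.9 CPM in KO1 and KO2. The carbonic anhydrase transcript was thus lowest in WT1, WT2 and KO1, below 10 CPM in each of these.

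Alas2 and Slc4a1 had another order. Alas2 stood at 26.8, 24.4 and 27.6 CPM in WT1 to WT3, 213, 69.0 and 36.7 CPM in HET1 to HET3, and 9.49 and 31.7 CPM in KO1 and KO2. Slc4a1 stood at 7.16, 11.1 and 12.9 CPM in WT, 89.5, 37.8 and 13.4 CPM in HET, and 1.47 and 31.1 CPM in KO. Both were highest in HET1, and WT3, which was high for Gata1, Klf1 and Car1, was as low as WT1 and WT2. A part of the Alas2 exons, 12.9%, overlaps exons of Apex2 on the opposite strand, and whether the counting used strand is not stated, so its reads could include some from that gene.

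Between genes, levels were compared per kilobase of annotated exon (CPM divided by the exon length, RPKM). Klf1 had the highest level in 7 of the 8 libraries, and Slc4a1 the lowest in all 8. Over the 8 libraries Klf1 averaged 383 RPKM (SD 307), Rhd 116 (SD 75.8), Rhag 101 (SD 76.1), Gata1 92.9 (SD 63.7), Car1 89.1 (SD 85.0), Tfrc 63.6 (SD 42.2), Zfpm1 47.2 (SD 14.8), Alas2 22.8 (SD 27.5) and Slc4a1 5.22 (SD 5.84). Each neighbouring pair in this order differed by less than the larger of its SDs. In KO1 the order changed at the top, where Zfpm1, at 35.9 RPKM, stood above Klf1, at 23.7 RPKM.

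Sequence upstream of the RefSeq transcription start (GRCm38.p6) was at hand for 7 of the 9 genes, with Slc4a1 and Car1 not among them. The windows of 4 genes are printed to show Gata1, whose product binds GATA words, with 3 members that hold such a word, and they were picked for holding it. Over the 8 libraries Klf1, Rhag and Rhd correlated with Gata1 at 0.97, 0.96 and 0.90 (Pearson, log2 CPM). Alas2, which also held a GATA word but is not printed, correlated with Gata1 at 0.53. Tfrc and Zfpm1, which held none, correlated with it at 0.97 and 0.94. Capitals mark the words bound by GATA factors, taken as AGATAA with AGATAG on the one hand and TGATAA with TGATAG on the other, and CCNCNCCC, the word bound by KLF1 and its relatives, each on either strand. The Gata1 window is chrX:7967911-7968160 on the minus strand, in an intron of the longer annotated transcripts and upstream of the RefSeq start. The Klf1 window is chr8:84901732-84901927, the Rhag window chr17:40810899-40811125 and the Rhd window chr4:134864286-134864535, all on the plus strand and ending before the first annotated exon.
Gata1: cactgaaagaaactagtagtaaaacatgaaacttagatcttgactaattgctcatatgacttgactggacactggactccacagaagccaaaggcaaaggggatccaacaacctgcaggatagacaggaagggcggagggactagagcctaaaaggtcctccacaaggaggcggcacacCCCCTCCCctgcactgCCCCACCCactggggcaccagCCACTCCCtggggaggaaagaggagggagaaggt
Klf1: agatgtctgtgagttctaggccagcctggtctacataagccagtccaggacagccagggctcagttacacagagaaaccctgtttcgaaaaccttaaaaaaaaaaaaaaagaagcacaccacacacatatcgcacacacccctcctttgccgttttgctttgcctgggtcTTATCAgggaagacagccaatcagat
Rhag: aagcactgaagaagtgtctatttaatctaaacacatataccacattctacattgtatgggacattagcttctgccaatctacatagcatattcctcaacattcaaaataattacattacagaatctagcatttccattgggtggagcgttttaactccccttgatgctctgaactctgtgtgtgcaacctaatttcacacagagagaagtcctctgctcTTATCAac
Rhd: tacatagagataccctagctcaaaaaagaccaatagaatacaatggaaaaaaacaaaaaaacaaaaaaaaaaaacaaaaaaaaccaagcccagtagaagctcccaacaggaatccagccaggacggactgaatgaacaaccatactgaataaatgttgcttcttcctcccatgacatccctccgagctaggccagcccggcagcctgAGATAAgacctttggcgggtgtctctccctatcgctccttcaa

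Over the 250 bases before the RefSeq start, 4 of the 7 genes held a GATA word, namely Klf1, Alas2, Rhag and Rhd, and 4 held CCNCNCCC, namely Gata1, Zfpm1, Tfrc and Alas2. In Klf1 the GATA word began 80 bases before the RefSeq start, in Rhag 31 and in Rhd 43. Of 32851 windows of the same 250 bases before RefSeq starts, 26.5% held a GATA word and 45.9% held CCNCNCCC, and no match of the first word overlapped one of the second in these genes. A match describes these letters alone.

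To set the knockout against its controls, WT and HET libraries were pooled as the reference and sex was a term of the model, as in the study's design. All 9 genes had a fitted log2 fold change below 0 in KO, and none passed the test over 20610 genes. For the regulators the log2 fold change was -1.47 (SE 0.76) for Gata1, -1.95 (SE 1.18) for Klf1 and -0.36 (SE 0.30) for Zfpm1. Tfrc was at -1.63 (SE 0.73). Of the late genes, Rhag was at -2.0 (SE 0.80), Car1 at -2.08 (SE 1.77), Rhd at -1.62 (SE 0.95), Alas2 at -1.11 (SE 0.99) and Slc4a1 at -0.39 (SE 1.31). The lowest adjusted p among the 9 was 0.176, for Rhag, and the highest 0.878, for Slc4a1 (edgeR quasi-likelihood test, Benjamini-Hochberg). The edgeR test called 0 of the 20610 genes (0.00%) with both an adjusted p under 0.05 and a log2 fold change beyond 1 in size, which is the threshold for every call given here. The lowest adjusted p over all genes in this test was 0.0862, and even the targeted gene, Nfkbia, was not called. The lack of a call therefore does not decide whether a member changed. At an unadjusted p under 0.05, 5196 genes stood out, 1954 of them lower in KO (9.48%), and Rhag was the 1 member among these in the edgeR fit. The share of the members was therefore near that of all genes. The members had a median fold of -1.62 (log2), beside 0.13 over all genes tested. Scaling by library size alone moved that all-gene median to 0.41 and the members' median to -1.39.

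The DESeq2 test with apeglm shrinkage, the tool of the study, called 123 of 20610 genes lower in KO (0.597%) and 1340 higher. Rhag was the 1 member called, with a shrunken log2 fold change of -1.38 (SE 0.95) and an adjusted p of 0.0378. Gata1, Tfrc and Rhd had an unadjusted p under 0.05 in that test but did not pass it after adjustment. Rhag was also the 1 member called when the authors' normalised, sex-corrected log2 values were tested with limma, at -2.07 (SE 0.55, adjusted p = 0.0386), where 0.747% of genes were called lower, and by DESeq2 without shrinkage, where 1.56% were. Whether Rhag counts as changed therefore depended on the test, and over all alternatives its adjusted p ran from 0.0378 to 1.0.

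**Figure D2:**
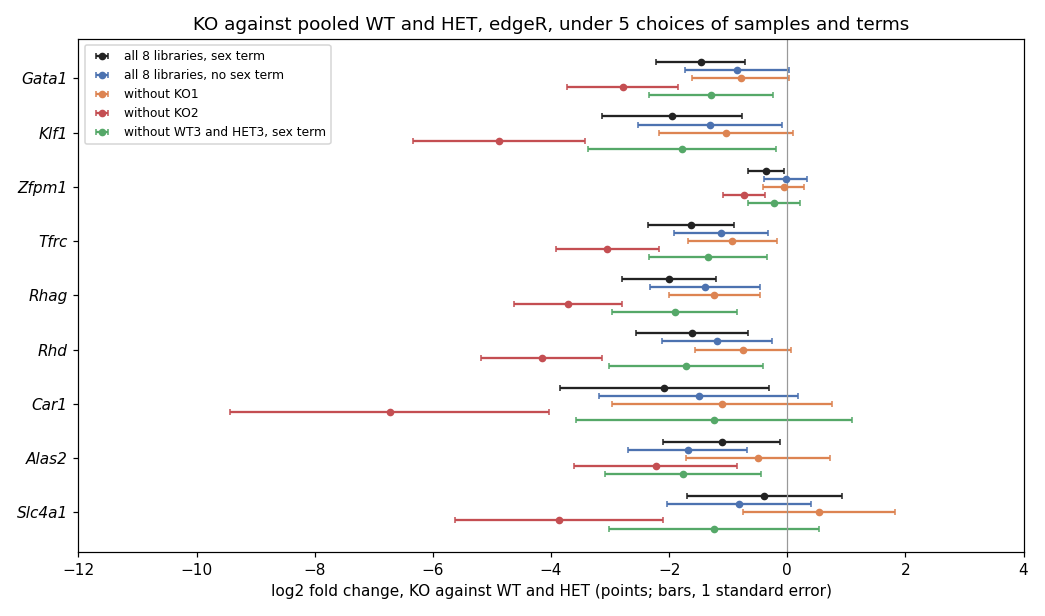
Log2 fold change of KO against pooled WT and HET (x axis, bars 1 SE) for each gene under 5 choices of libraries and model terms. Without KO2 the estimates ran from -0.73 for Zfpm1 to -6.73 for Car1, and without KO1 from -1.24 for Rhag to 0.54 for Slc4a1.

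Because both KO libraries were female, the model set them against WT3, HET2 and HET3, and the estimates from the 5 female libraries alone differed from it by at most 0.0399. Of the 9 genes, 6, namely Gata1, Klf1, Tfrc, Car1, Rhag and Rhd, were lower in both KO libraries than in all 3 female WT and HET libraries. The same was true of 21.4% of all genes tested. No member was lower in both KO libraries than in all 6 WT and HET libraries, which held for 1.79% of genes, since WT1 and WT2 were at or below KO2 for all 9 genes. In exact two-sided permutation tests of mean log2 CPM, 2 KO against 6 WT and HET libraries gave p from 0.214 for Rhd to 0.857 for Zfpm1, where 0.0714 is the smallest p this design allows. Against the 3 female libraries the smallest p possible is 0.2, and those 6 genes reached it.

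The female reference included WT3 and HET3. Without these 2 libraries HET2 was the only female reference, and the log2 fold changes were -1.29 (SE 1.05) for Gata1, -1.79 (SE 1.59) for Klf1, -1.91 (SE 1.06) for Rhag and -1.24 (SE 2.34) for Car1, with adjusted p of 0.671 or higher for all 9 genes. Without the 2 libraries and without the sex term, Gata1 was at -0.34 (SE 0.87), Klf1 at -0.77 (SE 1.25) and Zfpm1 at 0.21 (SE 0.35). With all 8 libraries and no sex term, Gata1 was at -0.86 (SE 0.88) and Rhag at -1.40 (SE 0.93), each with an adjusted p of 0.978. The 8 LT-HSC markers were all fitted higher in KO in the model with sex, with a median log2 fold change of 2.65, and the 8 hepatocyte markers all lower, with a median of -2.59. Without WT3 and HET3 these medians were 1.52 and -0.29. Their part in the lower member levels was not tested.

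The 2 KO libraries differed from each other in every member. All 9 genes were higher in KO2 than in KO1. Car1 was 49.4-fold higher (exact 95% interval of the counts, 35.9 to 70.1), Slc4a1 21.2-fold (14.7 to 31.6), Klf1 14.3-fold (13.3 to 15.4) and Rhd 10.6-fold (9.49 to 11.9). Rhag was 5.51-fold higher (5.07 to 6.0), Tfrc 4.33-fold (4.1 to 4.57), Gata1 4.0-fold (3.75 to 4.27) and Alas2 3.34-fold (2.84 to 3.94). Zfpm1 was 1.59-fold higher (1.51 to 1.67). These intervals cover counting error only, and with 1 library each there is no test between KO1 and KO2.

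**Figure D3:**
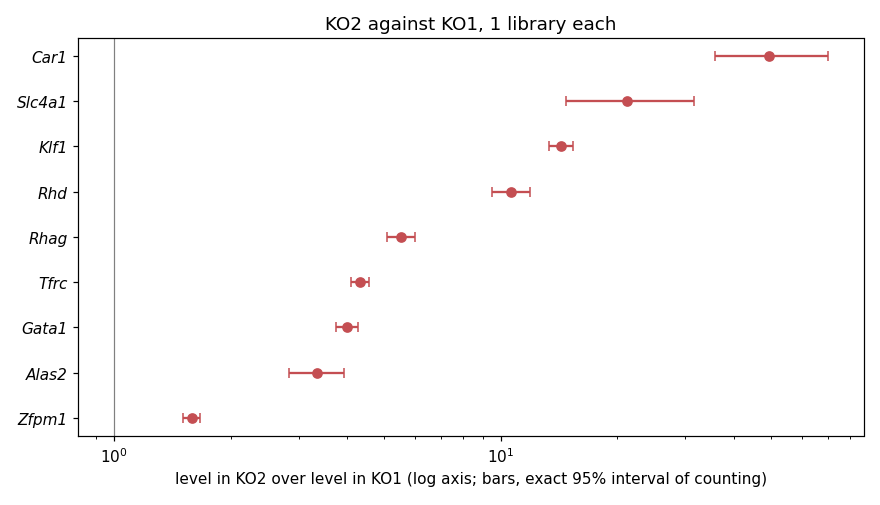
Level in KO2 over level in KO1 (log axis) for each gene, with the exact 95% interval of the counts. All 9 ratios lie above 1, from 1.59 for Zfpm1 to 49.4 for Car1.

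In all, 8 of the 9 genes were more than 2-fold higher in KO2, whereas 741 of 13343 genes with 10 or more reads in both libraries (5.55%) were. The share of those genes with a lower ratio than the member was 88.4% for Zfpm1 and at least 98.3% for each of the other 8. KO1 was the lowest of all libraries for 7 genes, Klf1, Tfrc, Alas2, Slc4a1, Car1, Rhag and Rhd, and KO2 for none. KO2 stood above both WT1 and WT2 for all 9 genes, and above 5 of the 6 WT and HET libraries for Zfpm1, 4 for Slc4a1, 3 for Alas2 and 2 for the other members. Other marker lists moved too, with megakaryocyte markers at 1099 CPM in KO1 and 141 in KO2, hepatocyte markers at 50.0 and 301 CPM, myeloid markers at 513 and 148 CPM, macrophage markers at 9.84 and 73.7 CPM, and globins at 589 and 2243 CPM. Their part in the difference between KO1 and KO2 was not tested.

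Set side by side, the ratios of the regulators were 1.59 to 14.3 and those of the late genes 3.34 to 49.4, so the ranges overlapped. The 3 regulators summed to 218 CPM in KO1 and 943 in KO2, and the 5 late genes to 61.7 and 507 CPM. The mean log2 CPM of the regulators exceeded that of the late genes by 3.20 in KO1 and by 1.88 in KO2. In the WT and HET libraries this excess was 1.90 (WT1), 1.79 (WT2), 2.14 (WT3), 0.71 (HET1), 1.61 (HET2) and 2.18 (HET3). KO1 thus lay above all 6 reference libraries and KO2 within their range, and the KO mean of 2.54 stood 0.82 above the reference mean of 1.72 (SD 0.54, n = 6). In KO1 the late genes were lower relative to the regulator mean than in any other library, and in HET1 they were higher. The regulators did not move as 1 in KO1. Against the mean log2 CPM of WT1 and WT2, KO1 stood at -1.44 for Klf1, -0.06 for Gata1 and 0.34 for Zfpm1. The late genes stood at -2.52 (Slc4a1) to -1.13 (Rhag), a range that holds the value of Klf1.

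Over the 8 libraries the members fell into a group of 7 and a pair. Pearson correlations of log2 CPM ran from 0.75 to 0.99 over the 21 pairs among Gata1, Klf1, Zfpm1, Tfrc, Car1, Rhag and Rhd. Alas2 with Slc4a1 gave 0.92, and either of these with the 7 gave 0.37 to 0.84. The late genes therefore did not form 1 block, since Car1, Rhag and Rhd followed the regulators. These points share libraries and their depth, and the values are a description.

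**Figure D4:**
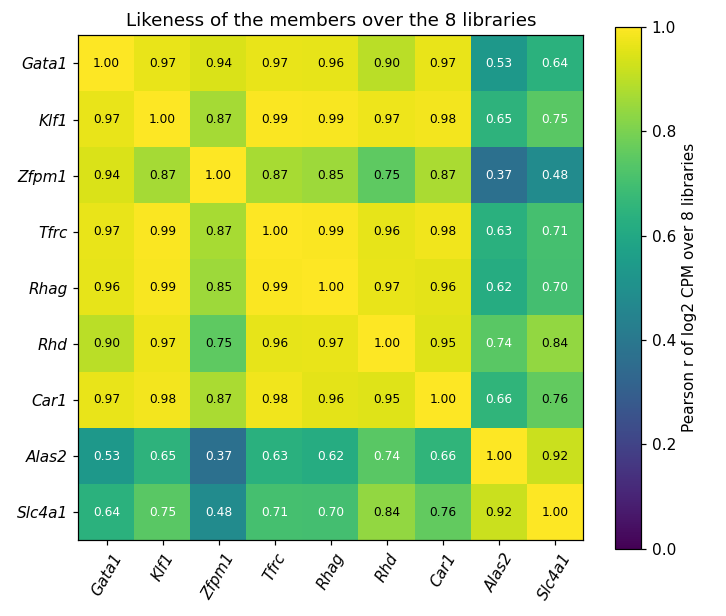
Pearson correlation of log2 CPM over the 8 libraries for each pair of genes, on a scale from 0 to 1. A block of 7 genes stands at 0.75 or above, and Alas2 and Slc4a1 form a pair at 0.92.

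Other lists gave context for the split. Mean log2 CPM of 7 globin genes correlated at 0.96 with Alas2 and 0.96 with Slc4a1, and at 0.55 with Gata1. Globins summed to 12913 CPM in HET1, 3836 in HET2, 2243 in KO2 and 589 to 1569 in the other 5 libraries. Hbb-bs, an adult beta-globin gene whose reads are hard to split from its near-identical neighbour Hbb-bt, stood at 5740 CPM in HET1 and 147 CPM in KO1. The mean of the 8 LT-HSC markers correlated at -0.80 with Gata1 and -0.75 with Klf1, and at -0.23 with Alas2 and -0.22 with Slc4a1. The mean of the hepatocyte markers correlated at 0.95 with Gata1 and 0.31 with Alas2. Megakaryocyte markers ran opposite to the regulators, at -0.92 with their mean, although Gata1 and Zfpm1 act in that lineage too.

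**Figure D5:**
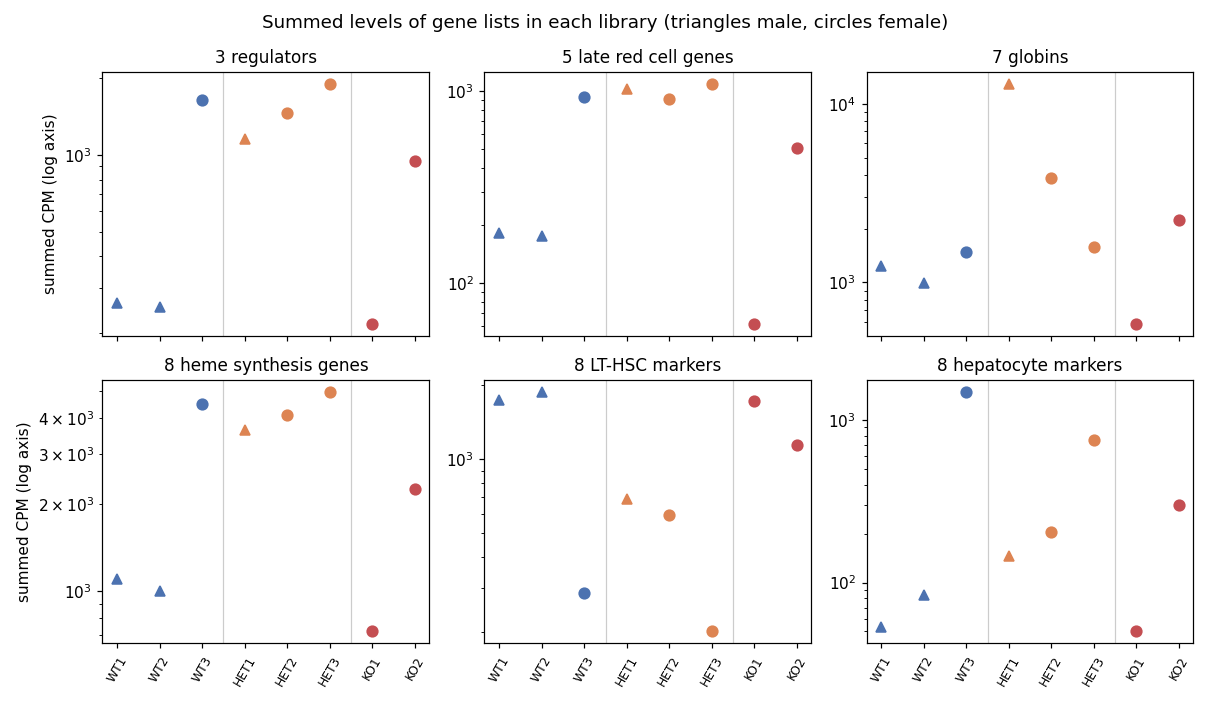
Summed CPM (log axis) of 6 gene lists in each library, with triangles for male and circles for female embryos. The regulators and the 5 late genes are low in WT1, WT2 and KO1, where LT-HSC markers are high, and globins peak in HET1 at 12913 CPM.

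Summed levels of myeloid markers ranged from 123 (HET3) to 930 CPM (WT3), of macrophage markers from 9.84 (KO1) to 237 CPM (WT3), of mast cell and basophil markers from 0.534 to 4.03 CPM, and of gate-negative markers, nearly all Cd48, from 45.8 to 90.6 CPM. Cd3e and Ly6g had no read in any library.

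Among 10090 other genes with a mean of at least 5 CPM, those most like the mean of the 3 regulators were Steap3 (r = 0.999), Tnfaip2 (0.998), Slc11a2 (0.998), Atp13a3 (0.998) and Ermap (0.998). Steap3 and Slc11a2 reduce and transport iron taken up by the cell, and Ermap encodes a red cell surface protein. Such likeness was common, since 2237 of these genes (22.2%) had r over 0.9. Among the genes most like the mean of the 5 late genes were Kel (0.985), which encodes a red cell surface antigen, Fech (0.983), which inserts the iron into heme, and Cldn13 (0.979). Here 205 genes (2.03%) had r over 0.9.

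The remaining genes of the red cell program were read from lists of transcription factors, erythropoietin signalling, heme synthesis, iron handling, the red cell membrane and globins. In KO against WT and HET the edgeR test called 0 genes of these 6 lists, and the counts at an unadjusted p under 0.05 are given for each list, to be read beside the 15.7% of all genes higher and 9.48% lower at that level. Of 8 heme synthesis genes 7 were fitted lower, with a median log2 fold change of -1.28, and 3 of them (Alad, Urod and Ppox) had a p under 0.05. Alad, which joins the precursors made by the ALAS enzymes, was at -2.46 (SE 0.92) and Ppox at -1.23 (SE 0.39). Both were called lower by DESeq2 with apeglm, with adjusted p of 0.0223 and 0.028. Alad stood at 113.6 and 515.3 CPM in KO1 and KO2, beside 194.3 and 180.9 CPM in WT1 and WT2. Ppox stood at 33.5 and 43.8 CPM in KO1 and KO2, beside 46.1 and 40.5 CPM in WT1 and WT2.

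All 8 iron handling genes were fitted lower, 1 of them (Fth1) with a p under 0.05, with a median log2 fold change of -0.77. Fth1, the heavy chain of ferritin, was at -0.70 (SE 0.26) and Slc40a1, the iron exporter ferroportin, at -1.53 (SE 0.79). Of 14 membrane genes 11 were fitted lower, 1 of them (Car2) with a p under 0.05, with a median of -1.34. Car2 was at -0.68 (SE 0.25) and Gypc at 0.01 (SE 0.16). Of 7 globins 4 were fitted lower and none had a p under 0.05, with Hbb-bs at -1.36 (SE 1.19) and Hbb-bt at 0.39 (SE 1.10).

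The 13 transcription factors and partners did not share a direction, with 7 fitted higher and 6 lower and a median of 0.02, and 4 had a p under 0.05 and were higher and 3 had one and were lower. Gata2, the GATA factor of stem and progenitor cells, was at 2.21 (SE 0.29) and Spi1, which encodes PU.1, at 1.88 (SE 0.58). Gfi1b, a repressor needed in red cell and megakaryocyte precursors, was at -1.49 (SE 0.58). These 3 were called by DESeq2 with apeglm, with adjusted p of 1.47e-06, 0.0249 and 0.045. Gata2 stood at 180.1 and 138.0 CPM in KO1 and KO2, above WT3 and the HET libraries (28.4 to 76.3) but near WT1 and WT2 (140.0 and 148.2). Spi1, at 236.1 and 168.5 CPM, was above WT3 and the HET libraries (17.9 to 151.1) but below WT1 and WT2 (275.9 and 289.5). Gfi1b, at 113.1 and 228.7 CPM, was below WT3 and the HET libraries (323.8 to 572.8) but above WT1 and WT2 (98.2 and 98.0). The most abundant genes of the list, Lmo2 and Myb, were at 0.27 (SE 0.19) and -0.35 (SE 0.17). In erythropoietin signalling 6 of 8 genes were fitted higher, 4 of them with a p under 0.05, and the median was 0.51. Cish, a feedback inhibitor of this pathway, was at 1.91 (SE 0.54, adjusted p = 0.0175 by DESeq2 with apeglm). It stood at 8.81 and 12.2 CPM in KO1 and KO2, beside 10.9 and 10.8 CPM in WT1 and WT2. Jak2 was at 0.23 (SE 0.18) and Epor, the receptor, at -1.28 (SE 0.56). The ratio of Gata1 to Gata2 was 0.369 in WT1, 0.449 in WT2, 14.2 in WT3, 3.26 in HET1, 8.34 in HET2, 12.4 in HET3, 0.312 in KO1 and 1.63 in KO2.

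Of the LT-HSC markers, Slamf1, which encodes CD150, was at 1.86 (SE 0.59) and Cd34 at 2.54 (SE 0.87), and DESeq2 with apeglm called these 2 higher, with adjusted p of 0.0309 and 0.0272. Slamf1 stood at 83.2 and 51.1 CPM in KO1 and KO2, above the 13.0 to 24.9 CPM of WT3 and the HET libraries and below the 124 and 119 CPM of WT1 and WT2. DESeq2 with apeglm also called Gp9, a platelet receptor subunit among the megakaryocyte markers (edgeR estimate 2.44, SE 0.93, adjusted p = 0.0444 by DESeq2), and Cpa3, a mast cell protease (edgeR estimate 2.01, SE 0.69, adjusted p = 0.038 by DESeq2), higher in KO.

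Without WT3 and HET3, the median log2 fold changes were -1.41 for heme synthesis, -0.86 for iron handling, -1.48 for the membrane list, -1.05 for globins, 0.05 for transcription factors and 0.30 for erythropoietin signalling. At an unadjusted p under 0.05, 1 heme synthesis gene (Ppox) was then lower and 1 transcription factor (Gata2) and 1 LT-HSC marker (Cd34) were higher, and none of the other 4 red cell lists had such a gene, beside 4.18% of all genes higher and 1.05% lower. Gata2 stood at 1.95 (SE 0.47), Ppox at -1.48 (SE 0.54) and Cd34 at 1.44 (SE 0.54), each with an edgeR adjusted p of 0.671. Alad stood at -2.08 (SE 1.20), Spi1 at 1.05 (SE 0.46), Gfi1b at -1.14 (SE 0.78) and Cish at 1.14 (SE 0.61). Hbb-bt turned from 0.39 to -0.41 (SE 1.56) and Gypc from 0.01 to -0.09 (SE 0.27).

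HET was compared with WT as well, since the study pooled them. All 9 genes had a fitted log2 fold change above 0, from 0.45 (SE 0.20) for Zfpm1 to 2.15 (SE 0.63) for Slc4a1, and none passed the test over 19542 genes, all with an adjusted p of 0.919. The edgeR test called 0 genes (0.00%), and 754 had an unadjusted p under 0.05. Klf1 (1.47, SE 0.60), Tfrc (0.97, SE 0.39), Alas2 (2.0, SE 0.50), Slc4a1, Rhag (1.10, SE 0.34) and Rhd (1.18, SE 0.37) were among the 373 genes higher in HET at that level (1.91%). Alas2, Slc4a1 and Rhd were higher in all 3 HET than in all 3 WT libraries, as were 4.20% of genes. These 3 reached the smallest p that 3 against 3 libraries allow, 0.1 in the exact two-sided permutation test. Of the other red cell lists, 4 of 8 heme synthesis genes, 4 of 8 iron handling genes, 9 of 14 membrane genes and 4 of 7 globins had an unadjusted p under 0.05 and were fitted higher in HET, against 1 of 8 erythropoietin signalling genes (Epor) and 0 of 13 transcription factors, and edgeR called none of them.

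The difference depended on single libraries. Without HET1 the log2 fold change was -0.08 for Gata1, 0.05 for Klf1 and -0.88 for Car1, and without WT3 it was larger than with all libraries for each of the 9 genes. In the fit without WT3 and HET3, where HET2 was the only female library so that the estimate came from HET1 against WT1 and WT2, 8 of the 9 genes were called higher in HET, beside 3.63% of all genes. In the male libraries alone 8 were called, beside 3.24%, and with all libraries and no filter on low counts 6 were, beside 0.353%. Gata1 was at 2.07 (SE 0.18), Klf1 at 2.88 (SE 0.21) and Car1 at 4.99 (SE 0.19), and Zfpm1, at 0.78, was not called because its fold change was under the limit. In that fit 7 of the 8 LT-HSC markers were called lower in HET and 6 of the 7 hepatocyte markers tested higher. Their part in the result was not tested, and HET1 as a single library is assumed there to vary like the others.

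The fitted HET difference was larger in the male than in the female libraries for all 9 genes, by 0.65 (SE 0.29) on the log2 scale for Zfpm1 up to 5.87 (SE 0.52) for Car1. No gene passed the interaction test, with adjusted p of 0.317 to 0.473 for the members and 0 genes called of 19542 (0.00%). At an unadjusted p under 0.05, 2133 genes stood out, 1311 of them larger in male (6.71%), and 8 of the 9 members, all but Zfpm1, were among these. The male arm held 2 WT and 1 HET libraries, and the only WT library of the female arm was WT3.

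Male libraries were compared with female ones as the split that the labels show. The KO libraries had their own term in this model, so it set WT1, WT2 and HET1 against WT3, HET2 and HET3. The 2 sides also differ in their share of WT and HET, and WT3 and HET3 are both on the female side. These differences cannot be told apart from sex here. In the edgeR test the log2 fold change of male over female was -1.67 (SE 0.66) for Gata1, -0.76 (SE 0.27) for Zfpm1 and -1.67 (SE 0.68) for Rhag, each with an unadjusted p under 0.05. None of the 9 was called, with adjusted p of 0.103 to 0.683, and 4 genes were called over the whole table (0.0194%). At an unadjusted p under 0.05, 13.6% of genes were lower in male, beside 3 of the 9 members. Alas2 (0.98, SE 0.86) and Slc4a1 (0.75, SE 1.16) were fitted higher in male. Gata1 and Rhag were called lower in male by DESeq2 with apeglm (1.62% of all genes) and without shrinkage (3.00%), and 2 members by edgeR with no filter on low counts (1.40%). Without HET1, edgeR called 6 of the 9 genes lower in male, beside 6.32% of all genes, and Alas2 and Slc4a1 turned to -0.81 and -1.25.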

How the data were processed

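LT-HSC libraries were sequenced as 50-base single-end reads. Per the methods and the submitters' processing notes, the authors trimmed reads with Trim Galore 0.6.6, aligned them with STAR 2.7.8 to GRCm38 (Ensembl 102 annotation) and deposited raw counts per gene, the unit used here. The strand setting of the counts was not given in the sources used here. They also deposited log2-scale values made by a variance-stabilising transformation in DESeq2 1.38.3 with sex removed, which were used as an alternative.

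Genes with at least 10 reads summed over the samples of a fit were kept, scaled by TMM and tested with edgeR 4.0.16 (quasi-likelihood, R 4.3.3), with DESeq2 1.42.0, apeglm 1.24.0 and limma 3.58.1 as alternatives. A gene was called where its Benjamini-Hochberg adjusted p was under 0.05 and its log2 fold change beyond 1 in size. Log2 CPM used a prior count of 2. Fits were tested on simulated counts in which 200 genes were changed by 2 on the log2 scale. In KO against WT and HET, edgeR recovered 48.5% of them with 3 false calls. DESeq2 with apeglm recovered 68% there, with 59 false calls. In HET against WT the values were 39.5% with 4 false calls for edgeR and 57.5% with 56 for DESeq2 with apeglm. In these simulated counts edgeR thus missed many of the changes made, and DESeq2 with apeglm made more false calls. The counts were drawn separately for each gene around fitted means. They held no further variation shared between genes, so these rates need not hold for the libraries themselves. Symbols, positions and exon lengths came from GENCODE M21 (GRCm38).

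The 9 genes and the lists were chosen with earlier results of these data known. In the KO comparison, the other list genes named are those called by edgeR or, where it called none, up to 4 per list called by DESeq2 with apeglm, and the 2 most abundant of each red cell list. The 5 genes most like each member group were named too, as was Nfkbia. A few genes that this rule selects are not reported here. Urod and Procr, Ly6a, Cd48, Cd3e and Ly6g were named after their values were seen. Nothing states separate litters, so p-values measure the spread between these samples. The study reports that it took the genotypes from shared litters where it could, but not which libraries shared a litter. Replicates of each group differed by far more than counting noise. Replicate numbers were not taken as pairing the samples, since the titles give a number alone. Whether same-numbered libraries deviate together could not decide this for KO, since the deviations of KO1 and KO2 from their mean are exact opposites.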

Additional observations from a re-analysis of the deposited data

Results flagged for a closer look

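Alas2 in HET1, at 213 CPM, lay far from the other 5 WT and HET libraries, the next of which was HET2 at 69.0 CPM. Slc4a1 in HET1, at 89.5 CPM, did as well, with HET2 next at 37.8 CPM. The gap to the next library was 0.763 of the range for Alas2 and 0.628 for Slc4a1, on the CPM scale without logarithm. How often chance gives such a gap was not tested, and 9 genes that vary together were examined. Globins were also highest in HET1, at 12913 CPM, and their part was not tested. Car1 was higher in HET1, the only male HET library (188 CPM), than in both male WT libraries (5.52 and 6.31 CPM). It was lower in both female HET libraries (109 and 202 CPM) than in WT3, the only female WT library (285 CPM). Each direction thus rests on a single library, and WT3 stood apart from the LT-HSC label. The difference of the log2 fold changes was 5.87, with an interaction p of 7.12e-05 unadjusted and 0.317 adjusted over all genes (edgeR).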

How the results depend on the processing

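Of the 9 genes none was called in KO against WT and HET by edgeR under any alternative, and 1 gene, Rhag, was called by DESeq2 without shrinkage, by DESeq2 with apeglm and by limma on the authors' values (1 each, beside 1.56%, 0.597% and 0.747% of all genes called lower). Over all genes edgeR called 0 and DESeq2 with apeglm 1463 in KO, 0 and 14 in HET against WT, and 4 and 2406 in male against female. In HET against WT, 6 members were called with no filter on low counts (0.353% of all genes called higher), 8 without WT3 and HET3 (3.63%) and 8 in the male libraries alone (3.24%). In male against female, 2 were called by DESeq2 with or without shrinkage (1.62% and 3.00% called lower) and 2 with no filter (1.40%), and 0 to 6 when 1 library was left out, the 6 being reached without HET1 (6.32%). Directions turned in these cases, whose cause was not tested. In KO, Zfpm1 stood at 0.21 without WT3, HET3 and the sex term, and Slc4a1 at 0.34 with WT alone as the reference and at -3.86 to 0.54 when 1 library was left out. In HET against WT, Gata1 ranged from -0.08 to 2.07 and Car1 from -0.88 to 4.99 when 1 library was left out, the low ends being the values without HET1 and in the female libraries alone. In male against female, Alas2 ranged from -0.81 to 1.46 and Slc4a1 from -1.25 to 1.45 when 1 library was left out, and Slc4a1 stood at -0.10 without WT3 and HET3. The alternatives without WT3 and HET3 and the later form of the edgeR fit were chosen after seeing the data.

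With the replicate number as a block, 0 members were called in each of the 3 comparisons, Rhag in KO stood at -1.80 (SE 1.09) with an edgeR adjusted p of 0.803, and Alas2 in male against female turned to -0.06. The numbers were not taken as pairing the samples, since the titles give a number alone. Deviations from the group means correlated at 0.293, 0.278 and 0.244 among the libraries numbered 1 and at 0.59 between those numbered 3. Among those numbered 2 the values were 0.198, -0.346 and -0.124. Between WT and HET all were positive, at 0.293, 0.198 and 0.59. The values with KO cannot decide on pairing, since the deviations of KO1 and KO2 are exact opposites. Leaving out WT3 and HET3, or 1 KO library, left groups of 1 library in places, which are assumed to vary like the others.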
